A study of Triticum aestivum with 24 samples.

Results

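The sheaths of resistant wheat seedlings were compared a day after Hessian fly eggs had hatched on them with sheaths of the same line that carried no larvae. The samples were chosen by their labels alone, as the 3 arrays of infested Molly at 24 h and the 3 arrays of uninfested Molly, 6 of the 24 arrays of the study. Molly is a wheat cultivar that holds H13, a resistance gene against the fly, and the labels call its encounter with larvae incompatible. Seedlings were infested at the stage with a pair of leaves, by mated females that laid eggs on them, and total RNA came from the piece of the second leaf sheath where the larvae feed. The uninfested Molly sheaths were labelled 12 h. No uninfested sheath was labelled 24 h, so in the main comparison infestation, plant age and hour of the day cannot be told apart. The other groups used here, with 3 arrays each, were infested Molly at 6 h and 12 h after hatching and those of the susceptible cultivar Newton. The interaction of Newton is compatible, and its groups were infested sheaths at 6 h, 12 h and 24 h and uninfested ones at 12 h. Replicates of infested sheaths are labelled biological. The uninfested ones bear only numbers, so their array-to-array spread could be technical. The spread behind each p-value was pooled over all groups of the 24 arrays, so it is not that of the compared arrays alone.

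The Hessian fly is a gall midge whose first larvae crawl down the leaf and settle at the base of a sheath, where they inject saliva and feed without chewing through the tissue. On a susceptible plant the attacked cells become a nutritive tissue and the seedling stops growing. On a plant with a matching resistance gene the larvae fail to establish and die within days, while the seedling resumes growth. Plant genes known from such encounters in cereals include proteinase, amylase and xylanase inhibitors, lectins, lipid transfer proteins, peroxidases and enzymes that remodel cell walls.

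Each array reports a signal for each probe set, a group of short probes read as 1 transcript, on a linear scale set to a common level by the authors with MAS5. Fold changes and log2 changes compare geometric means of 3 arrays, and a result was called where limma's adjusted p was under 0.05; "rose" and "fell" are used of called results. Of 61179 wheat probe sets 36707 were tested, with a median signal of 308. Control probe sets that match no wheat transcript reached 85, so where the dimmer group lay at or below that level the fold is given as "at least", against 85. The annotation used here names few wheat transcripts: 133 tested probe sets, from 77 genes, had an informative gene name.

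Markers were checked on the 6 arrays of the main comparison. Of 32 probe sets that mark green tissue 16 passed the filter, and 0 of the 16 were called. The summed signal of these 32 was 103800 to 115800 at 24 h and 99320 to 108400 without larvae. Of 15 probe sets for seed proteins, which a leaf sheath should lack, 12 were at or below 85 on all 6 arrays, and their summed signal was 3904 to 4373 at 24 h and 4800 to 5207 without larvae. Most of that sum was 1 probe set of ALP, an avenin-like protein gene, which read 3873, 3474 and 3637 against 4342, 4769.6 and 4453. The other ALP probe sets were at or below 85 on all 6 arrays, and the 11 probe sets of the other seed genes reached 209 at most. The profilin gene PRO1 had been set as a marker of anther and pollen, which a sheath should also lack. Its 2 probe sets were bright, so that check was not met. Their summed signal was 27600 to 28940 at 24 h and 26150 to 29870 without larvae, and 0 were called. Signal of the wheat 18S rRNA control was 1830, 2350 and 4208 on the 24 h replicates 1, 2 and 3, against 3943, 5090 and 6773 without larvae, so replicate 3 at 24 h lay within the uninfested range. In whole sheaths, fewer cells of a type and less RNA per cell cannot be told apart.

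Infestation at 24 h went with a broad change in transcript levels in Molly, with large rises and mostly small falls. Of 36707 probe sets 8782 were called, 23.9%, of which 4351 rose (11.9%) and 4431 fell (12.1%). The median log2 change was 0.96 among the rises and -0.54 among the falls. Rises of at least 2-fold numbered 2083 (5.67%) and falls of that size 504 (1.37%). At 4-fold there were 830 rises and 75 falls, and at 8-fold 351 and 17. Medians and counts by size, here and below, use the plain log2 changes, without the "at least" bound. A change whose dimmer group lay at the level of the controls thus counts at its full size, though that size is not measured. The share of such changes among the large rises and falls is not given here, so the contrast in size rests partly on them. The groups did not overlap in 38.7% of the tested probe sets, and in 8445 of the called ones, 23% of those tested. The split depends on the scaling: with arrays centred on their median, 29.2% of the calls were rises instead of 49.5%, and the median log2 change of all probe sets was -0.16 instead of -0.018. Calls that fell numbered 7365 under that scaling and 2834 without replicate 1 at 24 h.

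Rises and falls were both most numerous among bright probe sets, in different proportions, but rises of at least 2-fold were fewest there. Tested probe sets were ranked by mean signal into 4 equal bins. In the dimmest bin 670 rose and 149 fell, 8.93% called in all. In the second bin the counts were 1090 and 508, and in the third they were nearly even at 1284 and 1264. Among the brightest bin 1307 rose and 2510 fell, with 41.6% called. Of those 2510 falls only 133 reached 2-fold, against 317 of the 1307 rises. From the dimmest bin to the third, 603, 670 and 493 rises reached 2-fold, against 99, 129 and 143 falls. Mean signals in the dimmest bin were 44.78 to 110.8, around the level of the controls. The smaller scatter of bright probe sets lies beside these counts: the median SD of log2 signal at 24 h was 0.13 in the brightest bin and 0.38 in the dimmest.

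**Figure D1:**
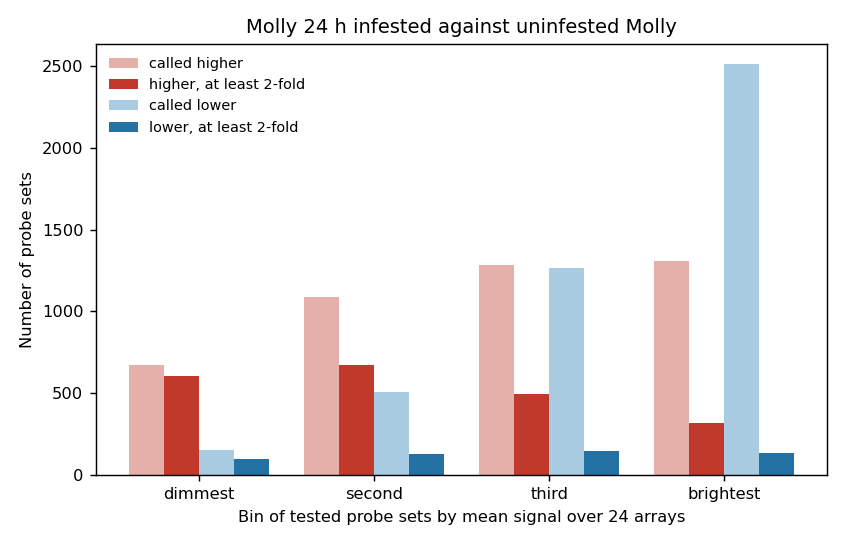
Number of probe sets called in infested Molly at 24 h against uninfested Molly (y axis) in 4 equal bins of the 36707 tested probe sets by mean signal (x axis). Red bars are rises and blue bars falls, with darker bars for changes of at least 2-fold; falls outnumber rises only in the brightest bin, at 2510 against 1307.

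The 3 arrays at 24 h had the highest median SD of the Molly groups. This median SD of log2 signal over probe sets was 0.22 at 24 h, 0.17 without larvae, 0.18 at 12 h and 0.19 at 6 h. The share of probe sets with an SD over 1 had another order, with 2.8% at 24 h and 3.3% without larvae. A principal component analysis of the 12 Molly arrays placed uninfested sheaths between -109.5 and -115.6 on the first component, which held 46.6% of the variance. Arrays at 6 h lay between 55.3 and 64.3 and those at 12 h between 36.0 and 52.8. At 24 h replicate 1 lay at 38.8, replicate 2 at 4.5 and replicate 3 at -21.5, all between the uninfested sheaths and the 6 h ones, with replicate 1 inside the 12 h range. The second component, with 14.4%, set the 24 h arrays (38.2 to 68.9) apart from those at 12 h (-44.7 to -54.1). Among the called rises replicate 1 was the array farthest from the uninfested mean in 60.4% and replicate 3 the nearest in 52.7%. For the falls those shares were 65.2% and 51.3%, and over all tested probe sets 47% and 40.8%. Signal of 18S rRNA, given above, had the same order as these arrays. With it as a covariate, an alternative added after seeing the data, 6638 probe sets were called, among them 71.1% of the 8782.

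**Figure D2:**
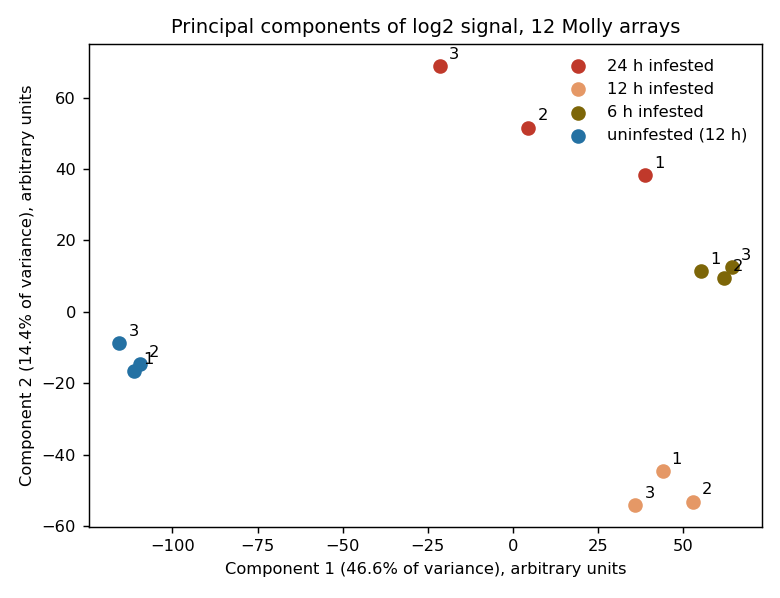
The 12 Molly arrays on the first and second principal components of log2 signal (arbitrary units), coloured by group and numbered by replicate. The 3 arrays at 24 h spread from 38.8 to -21.5 on the first component, between the uninfested arrays on the left and the 6 h arrays on the right.

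Genes of plant defence and protein or sugar inhibition were led by XIP-I, which encodes an inhibitor of microbial xylanases. Its signal was 7366, 2665 and 1505 on the 24 h replicates 1, 2 and 3 and 234, 363 and 190.1 on the uninfested ones. Replicate 1 was far above the other 24 h arrays, and no infested array came down to the uninfested range. XIP-I was 12.2-fold higher (log2 change 3.61, SE 0.53, adjusted p = 4.3e-05), and its other probe set gave a log2 change of 3.30 (adjusted p = 3e-05). WMAI-1, an alpha-amylase inhibitor, rose at least 1.15-fold: its arrays read 107, 95.5 and 91.4 against 50.4, 30.5 and 43.6, so all of them were near or below the level of the controls. Its call was lost without replicate 1 at 24 h (1.2, adjusted p = 0.077) and without uninfested replicate 2 (1.06, adjusted p = 0.098). With XIP-I and WMAI-1, 3 of 5 tested inhibitor and serpin probe sets rose and 0 fell, against 11.9% and 12.1% of all tested probe sets. Of these 3 rises 2 were of XIP-I. The list's median log2 change was 1.27 against -0.018 over all probe sets. ATI, an alpha-amylase and trypsin inhibitor, was not called (-0.77, adjusted p = 0.089), and its geometric means were within the range of the controls. WGA2, a wheat germ agglutinin, which is a chitin-binding lectin, read 173, 137 and 279 at 24 h and 79.7, 124 and 574 without larvae, with uninfested replicate 3 above all infested arrays (log2 change 0.074, adjusted p = 0.96). The 6 probe sets of thionins and of the thaumatin-like PR5 were at or below 85 on all 6 arrays.

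Only 2 probe sets of named regulators were tested, of which 1 rose and 0 fell (11.9% and 12.1% over all tested probe sets). WZF1, a zinc-finger protein gene, read 834, 539.5 and 487 at 24 h and 119, 161 and 89.3 without larvae. The groups lay well apart, with replicate 1 again the highest. WZF1 rose 5.03-fold (log2 change 2.33, SE 0.39, adjusted p = 0.00018). TBP1, the TATA-binding protein, had a log2 change of -0.12 (adjusted p = 0.47).

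**Figure D3:**
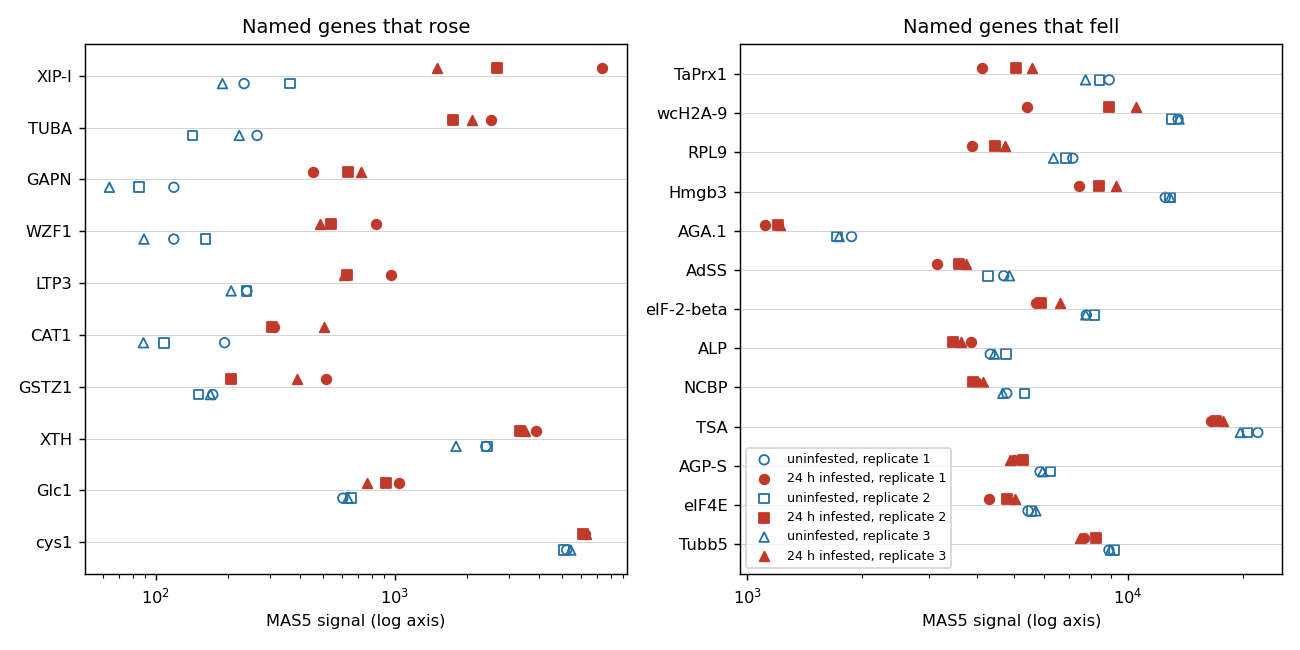
MAS5 signal on a log axis for the named genes with the largest rises (left) and falls (right), ordered by size of the log2 change, 1 probe set a gene. Filled red symbols are the 3 infested arrays at 24 h and open blue symbols the 3 uninfested arrays, with 1 symbol shape per replicate; in each gene shown the groups do not overlap, and the right panel spans smaller changes than the left.

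Detoxification genes moved in both directions. GSTZ1, a zeta-class glutathione transferase, rose in its 3 probe sets; the one with the largest change read 506, 286 and 194 at 24 h against 107, 83.3 and 77.8, a 3.44-fold rise (log2 change 1.78, SE 0.30, adjusted p = 0.0002). The other probe sets of the gene gave 1.42 and 1.08, and the latter was not called without replicate 1 at 24 h (0.79, adjusted p = 0.053). CAT1, a catalase, which breaks down hydrogen peroxide, read 313, 305 and 505 against 194, 108 and 88.8. Here replicate 3 was the highest of the 24 h arrays, and the gene was 2.96-fold higher (log2 change 1.56, SE 0.30, adjusted p = 0.00076). TaPrx1, a class III peroxidase gene, went the other way, with 4122, 5062 and 5597 at 24 h and 8916, 8402 and 7727 without larvae. All 3 infested arrays lay below the uninfested ones, replicate 1 lowest, and the gene was 1.70-fold lower (log2 change -0.77, SE 0.16, adjusted p = 0.0012). Each of its 4 probe sets was called lower (-0.61 to -0.77). The call of Ta.6572.2.S1_at was lost without replicate 1 at 24 h (-0.49, adjusted p = 0.056), and that of Ta.6572.3.S1_at without replicate 1 or 2 of either group (-0.56 to -0.73, adjusted p = 0.094 to 0.21). Thus 4 of the 12 probe sets of peroxidases and detoxification rose and 4 fell (11.9% and 12.1% over all tested probe sets). The 4 falls were of 1 gene, and 3 of the 4 rises were of GSTZ1. The glyoxalase gene lgul was not called, at -0.46 (adjusted p = 0.090).

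Cell wall and lipid transfer genes rose in 4 of 5 tested probe sets, with 0 falls (11.9% and 12.1% over all tested probe sets). The median log2 change was 0.70. LTP3, a lipid transfer protein gene, has 2 tested probe sets, which make up 2 of the 4 rises. Ta.1282.1.S1_x_at read 10924, 9642 and 10635 at 24 h against 4361, 4253 and 3701, with little spread in either group (log2 change 1.34, SE 0.17, adjusted p = 8.3e-06). The other read 964, 630.2 and 615 against 241, 239.7 and 207, with replicate 1 highest (log2 change 1.66, SE 0.29, adjusted p = 0.00032). XTH, a xyloglucan endotransglucosylase/hydrolase, which cuts and rejoins wall xyloglucan, was 1.62-fold higher at 3881, 3320.0 and 3480.1 against 2398, 2423 and 1801. The call was lost without replicate 1 at 24 h (0.64, adjusted p = 0.052) and without uninfested replicate 3 (0.56, adjusted p = 0.068). Glc1, a glucanase gene, was 1.42-fold higher at 1036, 915 and 764 against 606, 653 and 636. Its call was lost without replicate 1 at 24 h (0.41, adjusted p = 0.096), without uninfested replicate 1 (0.48, adjusted p = 0.053) and with arrays centred on their median (0.36, adjusted p = 0.075). TaGlu1a, a beta-glucosidase that releases benzoxazinoid toxins from their glucosides, was the member not called (-0.028, adjusted p = 0.87); it was bright on all 6 arrays, at 24488, 25582 and 25559 against 27603, 25744 and 23859.7.

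Gibberellin 20-oxidases make the precursors of the active growth hormone. GA20ox1d read 239.6, 208 and 156 at 24 h and 14.1, 15.9 and 18.6 without larvae. The uninfested signal was within the range of the controls, and the rise was at least 2.33-fold (adjusted p = 0.00058). GA20ox1b rose at least 1.36-fold, its arrays reading 134, 125 and 91.8 against 26.0, 81.5 and 62.9; that call was lost without replicate 1 or 2 at 24 h (1.07 and 1.12, adjusted p = 0.11 and 0.085), without uninfested replicate 1 (0.69, adjusted p = 0.21) and under 5 other alternatives. GA20ox1a was not called (0.78, adjusted p = 0.36). In all 2 of 3 tested members rose and 0 fell, against 11.9% and 12.1% of all tested probe sets. The filter used mean signal over all 24 arrays, so a gene dim elsewhere could pass it through infested Molly. The count of members can therefore favour rises.

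Carbon metabolism held 1 large rise. GAPN encodes the non-phosphorylating glyceraldehyde-3-phosphate dehydrogenase, a cytosolic source of NADPH. Its signal was 452, 634 and 723 at 24 h and 119, 85.1 and 64.0 without larvae, so that replicate 3 was highest and replicate 1 lowest at 24 h, and uninfested arrays were near the level of the controls. The gene was 6.84-fold higher (log2 change 2.77, SE 0.29, adjusted p = 8.2e-07). Subunits of ADP-glucose pyrophosphorylase, the first committed step of starch synthesis, were lower. AGA.1 read 1111, 1205 and 1220.3 against 1877, 1717 and 1742 and was 1.51-fold lower (log2 change -0.59, SE 0.13, adjusted p = 0.0024), while its other probe set was not called. AGP-S, the small subunit, read 4999, 5291 and 4896 against 5868, 6246 and 5964, with each group tight and apart from the other; it was 1.19-fold lower (-0.25, adjusted p = 0.011), a call lost without uninfested replicate 2 (-0.23, adjusted p = 0.053). Across the 9 probe sets of starch, fructan and sugar metabolism there were 1 rise and 2 falls (11.9% and 12.1% over all tested probe sets), with a median of 0.11 (-0.037 with arrays centred on their median). The fructan exohydrolase gene 6-FEH just missed the threshold, its probe set Ta.9641.1.A1_a_at reading 263, 129.6 and 119.7 against 85.3, 43.3 and 80.8 (1.26, adjusted p = 0.051).

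Of 12 tested probe sets of tubulins and profilin 1 rose and 1 fell, near the shares over all tested probe sets (11.9% and 12.1%). The median was -0.055 (0.057 under quantile normalization). TUBA, alpha-tubulin, read 2519, 1753 and 2098 at 24 h and 265, 142 and 224 without larvae in probe set Ta.723.1.S1_at. The infested arrays were all far above the uninfested ones, a 10.3-fold rise (log2 change 3.37, SE 0.52, adjusted p = 8e-05). The TUBA probe set Ta.812.1.S1_x_at, at 20408, 20700.0 and 21428 against 23336, 21715 and 20727, was not called (-0.071, adjusted p = 0.56), and its groups overlapped. Tubb5, beta-tubulin, was 1.16-fold lower in 1 of 4 probe sets, at 7667, 8210.5 and 7495 against 8902, 9191 and 8981 (-0.21, adjusted p = 0.013). That call was lost without replicate 3 at 24 h (-0.19, adjusted p = 0.052), without uninfested replicate 2 (-0.20, adjusted p = 0.051) or after quantile normalization (-0.12, adjusted p = 0.22). Beta-tubulin tubb2 was not called (-0.27, adjusted p = 0.11). Probes of tubulin genes match near-identical copies in the 3 genomes of hexaploid wheat, so which copy a signal comes from is uncertain.

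Of 8 translation probe sets 1 rose and 3 fell (11.9% and 12.1% over all tested probe sets), and 4 were not called, with a median of -0.13. RPL9, a ribosomal protein gene, read 3894, 4465 and 4734 against 7154, 6858 and 6367 and was 1.56-fold lower (log2 change -0.64, SE 0.14, adjusted p = 0.0019). The initiation factor gene eIF-2-beta read 5726, 5889 and 6611 against 7764, 8154 and 7739, 1.3-fold lower (adjusted p = 0.0013). In both genes replicate 1 was lowest and replicate 3 nearest to the uninfested arrays, without reaching them. The cap-binding protein genes NCBP and eIF4E were 1.23-fold and 1.19-fold lower (-0.30, adjusted p = 0.0047, and -0.25, adjusted p = 0.018). The eIF4E call was lost without replicate 1 at 24 h (-0.18, adjusted p = 0.12), without replicate 3 of the uninfested arrays (-0.23, adjusted p = 0.064), or once 18S rRNA was a covariate (-0.21, adjusted p = 0.11). An RPS29 probe set rose, from 67.9, 82.2 and 60.7 to 339.8, 229 and 151, at least 2.67-fold (adjusted p = 0.0024), while the other probe set of this ribosomal protein gene was not called (0.31, adjusted p = 0.59).

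Histones are the proteins that package DNA and are made mainly in dividing cells. Falls were called for 3 of the 20 probe sets of histones and chromatin proteins (6 genes) and rises for 0. That is near the 12.1% of all probe sets that fell, although 19 of the 20 had a negative change, with a median of -0.48. The list's median differed widely between the 24 h arrays, at -0.97 on replicate 1, -0.32 on replicate 2 and -0.085 on replicate 3, while uninfested arrays lay between -0.030 and 0.019. Its summed signal was 159200 to 264100 at 24 h and 279900 to 287500 without larvae. Without replicate 3 at 24 h 9 of 20 fell, and without replicate 1 2 of 20, at a median of -0.22. With 18S rRNA as a covariate the median was -0.55.

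Individual chromatin genes followed that order. Hmgb3, a high mobility group protein that bends DNA, read 7409, 8388 and 9304 against 12515, 12883 and 12883 and fell in both its probe sets, 1.53-fold in this one (log2 change -0.61, SE 0.13, adjusted p = 0.0019). The histone H2A gene wcH2A-9 fell in 1 of 6 probe sets, from 13520.5, 12997 and 13601 to 5428, 8879 and 10493 (log2 change -0.75, SE 0.25, adjusted p = 0.034). This call was lost without replicate 1 at 24 h (-0.47, adjusted p = 0.23), without any 1 of the uninfested arrays (-0.74 to -0.77, adjusted p = 0.069 to 0.082) and with 18S rRNA as a covariate (-0.82, adjusted p = 0.062). For the H2B gene wcH2B-8, replicate 3 at 1976 lay within the uninfested arrays, 1998, 1843 and 1812, and replicates 1 and 2 far below at 695 and 1089.9; it was not called (-0.72, adjusted p = 0.15).

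**Figure D4:**
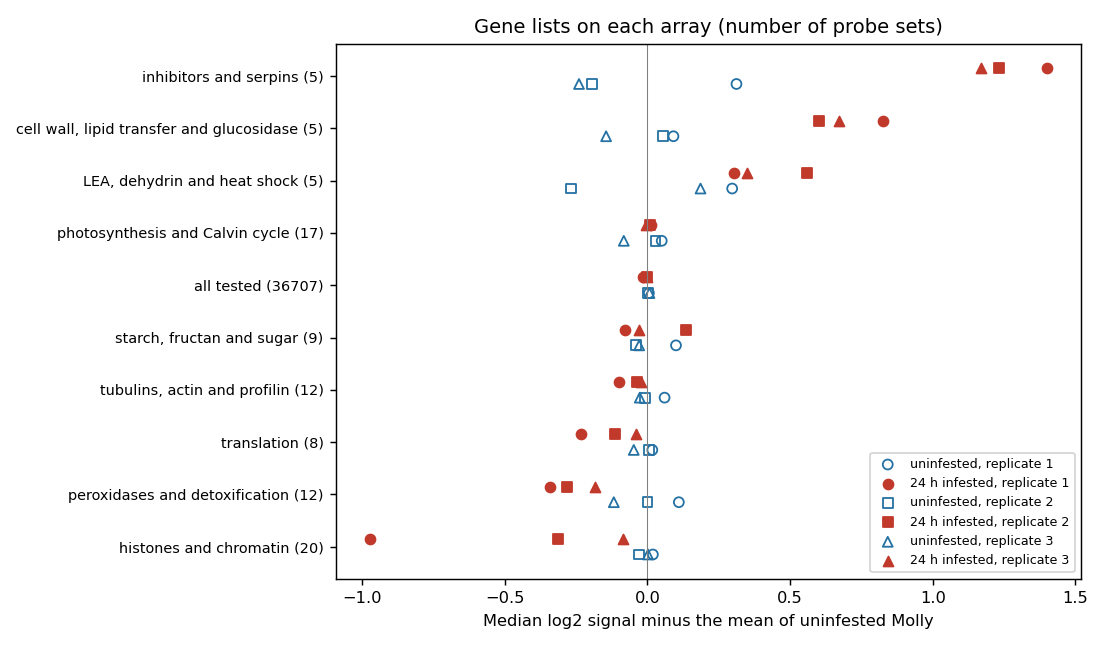
Median log2 signal of each gene list with at least 5 tested probe sets (number of probe sets in brackets), minus the mean of uninfested Molly (x axis), on each of the 3 infested arrays at 24 h (filled red) and the 3 uninfested arrays (open blue). Histones spread most, from -0.97 on replicate 1 to -0.085 on replicate 3, while the photosynthesis list and all 36707 tested probe sets stayed near 0.

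In other lists few members were called. None of 17 photosynthesis and Calvin cycle probe sets was called, with a median of -0.018, equal to that of all probe sets. Among 5 probe sets for LEA proteins, dehydrins or heat shock factors 0 were called (median 0.40); the dehydrin gene Rab15 had the largest change, 1.05 (adjusted p = 0.11). None of 4 methyl donor cycle probe sets was called. PEAMT1, a methyltransferase of phosphocholine synthesis, read 2387, 3269.5 and 4511 at 24 h and 3660.1, 4563 and 4476 without larvae (-0.36, adjusted p = 0.24); without replicate 3 at 24 h it was called lower (-0.59, adjusted p = 0.045). In purine metabolism AdSS, adenylosuccinate synthetase, was 1.32-fold lower at 3146, 3594 and 3756 against 4709.9, 4289 and 4877 (-0.41, adjusted p = 0.015). Leaving out replicate 1 at 24 h (-0.33, adjusted p = 0.091) or replicate 3 of the uninfested arrays (-0.36, adjusted p = 0.063), or adding 18S rRNA as a covariate (-0.38, adjusted p = 0.067), ended that call. APRT, adenine phosphoribosyltransferase, was not called (0.075, adjusted p = 0.38). The ALP probe set given above also fell (-0.31, adjusted p = 0.0021). TSA fell in both its tested probe sets by different amounts: Ta.28714.1.S1_at by a log2 change of -0.28 (adjusted p = 0.0065), and Ta.28714.1.A1_s_at by -1.25 (adjusted p = 0.0044), from 215, 305 and 352 to 140.4, 148 and 83.4. A small rise was called for cys1 (0.24, adjusted p = 0.042), which was lost without each of the 6 arrays in turn (0.22 to 0.27, adjusted p = 0.059 to 0.13). In all, 20 of the 133 named probe sets rose and 18 fell, near the shares over all tested probe sets (11.9% and 12.1%); replicate 1 was the 24 h array farthest from the uninfested mean in 17 of the 20 and in 13 of the 18.

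Among probe sets with no gene name, 2 rises and 2 falls were taken, the largest of those called, not overlapping and with the higher group above the median signal. Probe set Ta.21388.1.S1_at read 7548, 7671 and 8122 at 24 h and 28.9, 16.5 and 17.2 without larvae, a rise of at least 91.5-fold (adjusted p = 1.3e-08). Ta.758.1.A1_at read 10104, 15177 and 10662 against 29.9, 35.4 and 56.5, at least 139-fold (adjusted p = 1.4e-06). In both, the uninfested arrays were within the range of the controls, and the 24 h arrays differed little from each other. Their signals were also high at 12 h, at 4168, 4639 and 2387 for the former and 11892, 6231 and 9407 for the latter. The falls were of Ta.13378.1.A1_at, at 33.7, 45.6 and 77.6 against 1277, 1291 and 967, at least 13.7-fold (adjusted p = 2.4e-11), and of Ta.22766.1.S1_a_at, at 18.4, 18.1 and 36.5 against 302, 760.1 and 631, at least 6.18-fold (adjusted p = 1.4e-06).

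In those 2 probe sets the groups lined up by hour of sampling. Infested Molly at 12 h read 2475, 2622 and 2621 for Ta.13378.1.A1_at, above the uninfested arrays of the same hour, and at 6 h 58.9, 63.3 and 60.8, as low as at 24 h. Infested Newton read 1832, 1649.6 and 1916 at 12 h and 106, 170.0 and 200.0 at 24 h. Ta.22766.1.S1_a_at had the same order, with 49.5, 14.0 and 40.2 at 6 h and 1489, 1237 and 1835 at 12 h in infested Molly. Both were thus high in infested and uninfested sheaths at 12 h and low in infested sheaths at 6 h and 24 h. They also differed with larvae at the same hour, being higher in infested than uninfested Molly at 12 h (log2 difference 1.138 and 1.514, adjusted p = 0.00068 and 0.02). Their 24 h responses were more negative in Molly than in Newton (-1.605 and -2.843, adjusted p = 0.002 and 0.0068).

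For a comparison between hours, infested Newton at 24 h was set against infested Newton at 12 h. These sheaths share no array with the Molly comparison, only the fit's variance estimate. This comparison was added after seeing the data. It called 4285 of 36707 probe sets (11.7%), 1962 higher at 24 h (5.35%) and 2323 lower (6.33%). Of the 4351 rises of Molly at 24 h, 927 were also higher at 24 h in Newton, 21.3% of the Molly list and 47.2% of the Newton one, and 97 were lower. Of the 4431 falls, 1007 were also lower, 22.7% of the Molly list and 43.3% of the Newton one, and 30 were higher. Among the 75 falls of at least 4-fold 28 were lower in Newton, or 37.3%. Both groups of Newton sheaths were infested, so these values join hours of sampling with hours of feeding.

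The named genes showed more than 1 pattern. For CAT1, infested Molly at 12 h was not called against its uninfested control (log2 difference 0.055, adjusted p = 0.91), while 24 h exceeded 12 h in Molly by 1.51 (adjusted p = 0.0015) and in Newton by 1.37 (adjusted p = 0.0060). The Molly arrays read 111, 171 and 111 at 12 h. Against Molly at 6 h CAT1 was not called, nor was any other of the 12 probe sets of peroxidases and detoxification. AGA.1 was likewise not called at 12 h (0.10, adjusted p = 0.59) and was lower at 24 h than at 12 h by 0.70 in Molly (adjusted p = 0.00089) and by 0.55 in Newton (adjusted p = 0.0097). By contrast XIP-I, WZF1, LTP3 and GSTZ1 were called higher in Molly at 12 h too, where the control was taken at the same hour, and XIP-I and WZF1 were not called between 24 h and 12 h in Newton (XIP-I -0.60, adjusted p = 0.52; WZF1 0.58, adjusted p = 0.37). Neither LTP3 probe set was called over that interval in Newton (-0.25 and -0.17, adjusted p = 0.38 and 0.77), while the GSTZ1 probe set with the largest rise in Molly was lower at 24 h there (-0.95, adjusted p = 0.044) and the other GSTZ1 probe sets were not called. GAPN and TUBA rose in both ways: at 12 h in Molly by 1.33 and 1.48 (adjusted p = 0.0011 and 0.032) and from 12 h to 24 h in Newton by 1.73 and 1.70 (adjusted p = 0.00065 and 0.037).

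**Figure D5:**
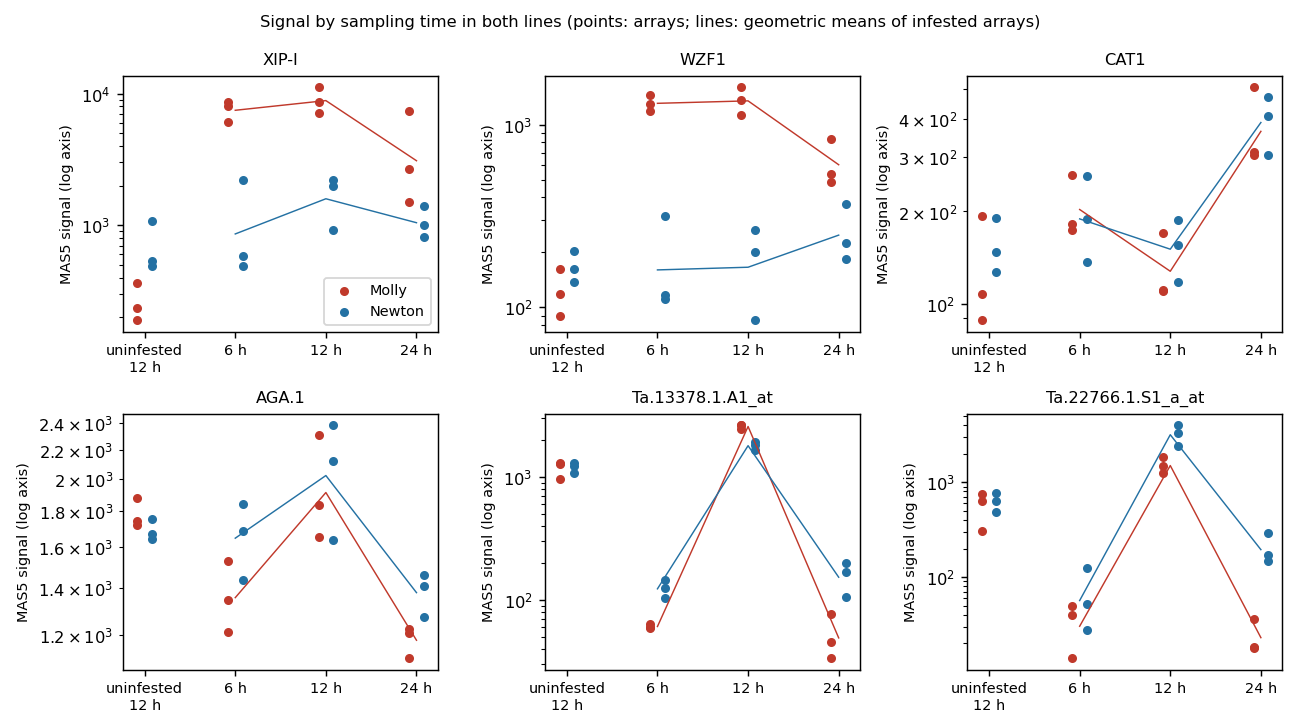
MAS5 signal on a log axis in uninfested sheaths labelled 12 h and in infested sheaths at 6, 12 and 24 h (x axis) for 4 named genes and the 2 unnamed probe sets that fell. Points are single arrays of Molly (red) and Newton (blue) and lines join geometric means of infested arrays. XIP-I and WZF1 are high in infested Molly at all 3 times, and CAT1 is higher at 24 h than at 12 h in both lines. Both unnamed probe sets are high at 12 h with and without larvae.

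Set against infested Molly at 12 h, the sheaths at 24 h differed in 6110 probe sets (16.6%), 3154 higher (8.59%) and 2956 lower (8.05%); without replicate 3 at 24 h 3706 were called. Among named genes 24 of 133 tested probe sets were called. Of these, 4 kept the call whichever array was left out: GAPN (1.45, adjusted p = 0.0014), CAT1, AGA.1 and Eif4B, an initiation factor gene (0.36). GAPN signal at 12 h was 186, 204 and 269, between the uninfested and the 24 h arrays. TUBA was 3.71-fold higher at 24 h than at 12 h, where it read 679, 622 and 429.7 (adjusted p = 0.015; 1.69 and adjusted p = 0.067 without replicate 3 at 12 h). TaPrx1 was 1.51-fold lower (adjusted p = 0.012), a call lost without replicate 1 at 24 h (-0.47, adjusted p = 0.057) or replicate 3 at 12 h (-0.54, adjusted p = 0.054).

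XIP-I and WZF1, which had risen at 12 h, stood lower at 24 h than at 12 h, whereas GAPN and TUBA stood higher, as given above, and LTP3 was not called. XIP-I at 12 h read 9597, 10921 and 8256 in the probe set that was called, against 7478, 3202 and 1682 at 24 h, 2.78-fold lower (adjusted p = 0.033). Replicate 1 at 24 h lay close to the 12 h arrays and replicates 2 and 3 well below. Its other probe set was not called (-1.52, adjusted p = 0.052). WZF1 at 12 h read 1354, 1594 and 1131 and was 2.24-fold lower at 24 h (adjusted p = 0.045). Each of these calls was lost on leaving out any array but replicate 1 at 24 h (XIP-I -0.96 to -1.58, WZF1 -1.01 to -1.29; adjusted p up to 0.22 and 0.17). RPL9 and the TSA probe set Ta.28714.1.A1_s_at were also called lower (-0.41 and -0.94), and PEAMT1, wcH2B-6 and wcH2B-8 were called higher (0.70, 0.61 to 0.68 and 0.90 to 1.05), and each call was lost without 3 to 5 of the 6 arrays, with adjusted p up to 0.27.

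Against infested Molly at 6 h, 2979 probe sets were called (8.12%), 1631 higher (4.44%) and 1348 lower (3.67%). In the list of histones and chromatin proteins 17 of 20 were higher and 0 lower, with a median log2 difference of 0.98. For wcH2A-9, probe set Ta.27657.12.S1_at read 3847, 7088 and 8589.7 at 24 h, 4633, 2587 and 3968 at 12 h, 2653, 2106 and 2177 at 6 h and 10029, 10084 and 9846 without larvae. All 24 h arrays were above those at 6 h and below the uninfested ones, replicate 3 nearest to the latter. The counts rest on that array: without replicate 3 at 24 h 606 probe sets and 2 of 20 of the histone list were called, and without replicate 1 4648 and 19 of 20. Histone medians lay at -1.40 to -1.56 at 6 h, -0.74 to -1.24 at 12 h and -0.085 to -0.97 at 24 h, relative to uninfested Molly. GAPN was also higher than at 6 h (0.93, adjusted p = 0.050), lost without 4 of the 6 arrays (adjusted p up to 0.24), as was AdSS (0.55, adjusted p = 0.0078), lost without 1 array (adjusted p = 0.061). No named gene was called lower than at 6 h.

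Compared with susceptible Newton at the same hour, the response of Molly to infestation differed in 6367 probe sets (17.3%), 3070 more positive in Molly (8.36%) and 3297 more negative (8.98%). LTP3 differed in direction in its brighter probe set. For the other, Ta.1282.4.S1_at, the responses differed by 2.02 on the log2 scale (adjusted p = 0.0019). In Newton Ta.1282.1.S1_x_at read 5751, 3791 and 4410.0 with larvae and 10088, 9675 and 8965 without, the reverse of the order in Molly, and the responses differed by 2.40 on the log2 scale (adjusted p = 1.1e-06). XIP-I in Newton read 1011, 809 and 1394 with larvae and 535, 1081 and 488 without, groups that overlapped, and the responses differed by 2.94 (adjusted p = 0.0087). GAPN in Newton read 451, 234 and 343 against 213, 241 and 186, with a difference of 2.13 (adjusted p = 0.0011). FKBP70, a peptidyl-prolyl isomerase of the FK506-binding family, went the other way. It read 15020.0, 15966 and 14786 with larvae and 6673, 6481 and 6958 without in Newton, against 9335, 11238 and 12558 and 9274, 8919.9 and 9236 in Molly (-0.92, adjusted p = 0.0028). The calls of these 4 genes did not depend on any single array. Ta.758.1.A1_at, the unnamed probe set with a large rise in Molly, read 1178, 1537 and 3409 in infested Newton, where uninfested arrays were within the range of the controls.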

How the data were processed

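Total RNA from the feeding site was hybridised to Affymetrix wheat arrays. The deposited values are MAS5 signal, a linear-scale intensity for every probe set, per the submitters' processing notes. Which MAS5 version was run is not given here. From 61290 probe sets, 111 control probe sets were set aside, and the dimmest 40% by mean log2 signal were dropped, leaving 36707 (mean signal above 44.8). Deposited intensities were taken to log2 with no pseudocount and fitted in limma 3.58.1 (R 4.3.3) over all 24 arrays, each group having 1 mean, with a variance prior that follows signal (16 residual and 4.49 prior degrees of freedom). Tests were two-sided, adjusted by Benjamini-Hochberg over all tested probe sets in each comparison, with a threshold of 0.05. The fit was tested on simulated data. Tables and plots were made with Python 3.11.15, pandas 2.3.3 and matplotlib 3.10.9. Comparisons with infested Molly at 12 h and 6 h share the 24 h arrays with the main one.

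The array annotation paired 1273 probe sets with 1 gene; 101 of 771 genes had an informative name, with 198 probe sets, of which 133 were tested. Named genes were, for the main comparison, up to 15 per direction by the largest change among called genes whose groups did not overlap and reached a signal above the median of tested probe sets in the brighter one; for the other comparisons up to 6 per direction; and from each gene list up to 3 called members and 1 not called. Of unnamed probe sets 2 were taken per direction. Eif4B was named after its values were seen. The groups, gene lists and comparisons were chosen with earlier results of these data known. The "at least" rule against 85, the highest of 8 tag controls, was added after seeing the data. No counts are held in the deposited values, so the number of arrays limits the precision; 3 against 3 arrays cannot give an exact permutation p under 0.1. Alternatives were other filters, offsets, scalings, array weights, a robust prior, the compared arrays only, 18S rRNA as a covariate, a replicate block and leaving out each array. Same-numbered arrays of the groups compared did not deviate together (r of -0.10 to 0.063), so the fit has no replicate block. Sequences and genome positions were not used here.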

Additional observations from a re-analysis of the deposited data

Results flagged for a closer look

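The response to infestation at 24 h differed between Molly and Newton in 23 of 133 named probe sets, by the interaction term of limma's fit. These were of 18 genes, and the count is near the share called over all tested probe sets (17.3%). The 6 genes with the largest differences in each direction are given here, as the log2 response of Molly minus that of Newton. It was more positive in Molly for 6-FEH (4.35, adjusted p = 0.0029), GA20ox1d (3.37, adjusted p = 0.019), XIP-I (2.94, adjusted p = 0.0087), LTP3 (2.40, adjusted p = 1.1e-06), GAPN (2.13, adjusted p = 0.0011) and WZF1 (1.75, adjusted p = 0.032). It was more negative for SAHH (-0.31, adjusted p = 0.036), ALP (-0.33, adjusted p = 0.020), Tubb5 (-0.45, adjusted p = 0.0038), PEAMT1 (-0.88, adjusted p = 0.045), FKBP70 (-0.92, adjusted p = 0.0028) and rbcl (-1.72, adjusted p = 0.019). Each value, here and below, is of the gene's called probe set with the largest difference. Of 12 tested rbcl probe sets only Ta.14567.2.S1_at was called, and SAHH, Tubb5 and 6-FEH were called in only some of theirs. The median difference over the 17 photosynthesis and Calvin cycle probe sets was 0.032.

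The sizes for 6-FEH, GA20ox1d and rbcl rest on groups no brighter than controls that match no wheat transcript: the 6-FEH probe set Ta.30950.1.A1_x_at read 15.4, 20.0 and 2.23 in infested Newton, and both Newton groups of GA20ox1d and all but infested Newton for rbcl had geometric means at or below 85. Those 3 differences are therefore not sizes of change of a measured transcript. Each of XIP-I, LTP3, GAPN, 6-FEH, FKBP70 and Tubb5 was called whichever of the 12 arrays was left out. The call of GA20ox1d was lost without Newton 24 h replicate 2 (2.97) or uninfested Newton replicate 3 (2.68). For rbcl it was lost without Molly 24 h replicate 2, uninfested Molly replicate 1 or uninfested Newton replicate 2 (-1.36 to -1.57). ALP lost it without replicate 2 of Molly at 24 h or of either uninfested group, or without Newton 24 h replicate 3 (-0.29 to -0.31). SAHH lost it without replicate 1 or 2 of either 24 h group, replicate 1 or 2 of uninfested Molly or replicate 2 of uninfested Newton (adjusted p up to 0.11). WZF1 lost it without replicate 1 of any of the 4 groups, replicate 2 of Newton at 24 h or replicate 3 of either uninfested group (1.51 to 1.76, adjusted p up to 0.087). PEAMT1 lost it without any of 8 arrays, all but replicate 3 of the 2 infested groups and of uninfested Newton and replicate 1 of uninfested Molly (-0.65 to -0.88, adjusted p up to 0.13).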

How the results depend on the processing

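Counts of rises and falls against uninfested Molly stayed within 1.5 times under most alternatives. With 60% of probe sets filtered out 1283 rose at least 2-fold, fewer probe sets being tested. A fit of the compared arrays alone called 7033 probe sets, among them 73.8% of the 8782 of the main fit. With arrays centred on their median 7365 fell, 900 of them at least 2-fold, and the rises were 29.2% of the calls (44.5% under quantile normalization). Leaving out 1 array gave 3022 to 4234 rises, 2834 to 4440 falls, 1659 to 2164 rises and 406 to 757 falls of at least 2-fold; the lowest count of falls was without replicate 1 at 24 h and the highest of 2-fold falls without replicate 3. Against Molly at 12 h 4043 probe sets were called in a fit of the compared arrays alone, 4005 with 18S rRNA as a covariate and 3706 to 6912 with 1 array left out. Against Molly at 6 h the counts were 777 with the compared arrays alone, 5282 with array weights and 606 to 4648 with 1 array left out, the extremes coming from replicates 3 and 1 at 24 h. The difference from Newton had 4749 to 6125. The replicate numbers did not pair the samples (correlations of -0.10 to 0.063), and the fit with the replicate block called 8418 probe sets against 8782. Sign turns occurred in uncalled genes only: WGA2 (-0.058 under quantile normalization, -0.071 with median centring, -0.17 with array weights, -0.51 to 0.92 with 1 array left out, negative without replicate 3 at 24 h or uninfested replicate 1 or 2), TaGlu1a (0.068 under quantile normalization, -0.081 to 0.024 with 1 array left out, positive without uninfested replicate 1) and APRT (-0.069 with median centring). The causes were not tested. Signals at or below 85 are not told from background.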
